A study of Mus musculus with 7 samples.

Results

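Border macrophages were chosen by measured counts in single-nucleus RNA sequencing of the posterolateral cortical amygdala (plCoA), as the nuclei with at least 3 unique molecular identifiers (UMIs) of F13a1 and Mrc1 together, and they numbered 302 of 51115 nuclei. A UMI marks 1 captured RNA molecule, and a nucleus was a barcode with at least 1000 genes and at most 30000 UMIs. A border macrophage also had to hold at least 1 UMI of Csf1r, Inpp5d and Ptprc together, at most 1 UMI of the neuronal genes Slc17a7, Slc17a6, Gad1 and Gad2 together, and at most 1 UMI of Slc6a13, a transporter of leptomeningeal cells. Of the 523 nuclei with enough F13a1 and Mrc1, 179 lacked a UMI of the myeloid genes, 187 held too many neuronal UMIs and 2 held too much Slc6a13, with overlaps between these reasons.

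The study set the anterior domain of plCoA (aplCoA) beside the posterior domain (pplCoA), which were dissected separately from male C57BL6J mice of 8 weeks that, per the study's methods, had all been housed alone and deprived of sensory input for the day before they were killed. Each replicate was a pool of dissected tissue from several mice, with 3 replicates in each domain. Replicate 1 of aplCoA was split over 2 libraries that were added together, and the 7 libraries therefore made 6 replicates. No nucleus carries the label of a single mouse, so the spread between replicates is a spread between pools.

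Border macrophages live outside the brain parenchyma proper, in the meninges, around vessels and in the choroid plexus, whereas microglia are the macrophages of the parenchyma. They take up proteins, lipids and debris from the cerebrospinal and perivascular fluid through scavenger receptors, and a part of them presents antigen on MHC class II. F13a1 encodes the A chain of coagulation factor XIII, a crosslinking enzyme that many tissue macrophages make, and Mrc1 encodes the mannose receptor CD206.

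The stretches before the start sites of F13a1 and Mrc1, which define the nuclei described here, and of the haemoglobin scavenger receptor gene Cd163, which separated them from microglia, are shown because these genes were high in the same nuclei. Each line gives the 250 bases before the annotated start, 5′ to 3′ on the strand of the gene, from RefSeq on build GRCm38.p6, with capitals for GAGGAA, the core that the myeloid factor PU.1 binds, or its reverse complement. F13a1 lies on the minus strand of chromosome 13, and Mrc1 and Cd163 on the plus strands of chromosomes 2 and 6.
F13a1, chr13:37050245-37050494: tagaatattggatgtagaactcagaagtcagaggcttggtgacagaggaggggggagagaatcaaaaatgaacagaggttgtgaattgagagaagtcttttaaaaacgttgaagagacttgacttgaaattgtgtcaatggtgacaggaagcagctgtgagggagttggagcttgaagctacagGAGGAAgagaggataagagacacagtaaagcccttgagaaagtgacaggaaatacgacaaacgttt
Mrc1, chr2:14229164-14229413: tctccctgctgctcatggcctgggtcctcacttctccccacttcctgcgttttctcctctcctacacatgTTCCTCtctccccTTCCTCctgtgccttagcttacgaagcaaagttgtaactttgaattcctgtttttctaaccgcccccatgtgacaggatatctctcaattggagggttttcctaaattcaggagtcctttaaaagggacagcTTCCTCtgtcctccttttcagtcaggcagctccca
Cd163, chr6:124304401-124304650: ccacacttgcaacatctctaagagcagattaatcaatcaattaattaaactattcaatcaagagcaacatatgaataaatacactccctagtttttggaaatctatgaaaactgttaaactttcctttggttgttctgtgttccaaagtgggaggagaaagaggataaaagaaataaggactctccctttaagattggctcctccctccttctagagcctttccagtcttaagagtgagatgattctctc
The core stood 1 time before F13a1, 3 times before Mrc1 and 0 times before Cd163. On either strand it was found before 7 of the 14 border macrophage genes that matched the RefSeq table (of 20 listed), before 5 of 12 matched microglia genes (of 18 listed) and before 23.1% of 27025 promoters of the same length. A match of letters is a description and not a binding site.

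The rule fixed the level of F13a1 and Mrc1, so their values are given as a description. The 302 nuclei held a median of 31 UMIs of both genes together, from 3 to 151, with a median of 19 for F13a1 and 12 for Mrc1. Although 1 gene alone would have met the rule, 284 nuclei held both, 14 held Mrc1 without F13a1 and 4 held F13a1 without Mrc1. The 14 nuclei stayed in the part because they met the rule, but they differed from the 284 in other genes. Lyve1 and Colec12 each had a UMI in 0 of the 14, Cd163 in 1, Stab1 in 4 and Dab2 in 9. Of the 284, the same genes were seen in 132, 207, 180, 269 and 280. Sall1, a gene of microglia, was in 3 of the 14 and in 1 of the 284. In the summed counts of each replicate, F13a1 lay between 5725 and 9123 counts scaled to 1000000 UMIs (CPM) in border macrophages and between 0 and 3.53 CPM in microglia, and Mrc1 between 3422 and 6125 CPM against 3.98 to 9.35 CPM. Of the nuclei that met the other limits, 34 stood just outside the threshold at 2 UMIs and 8 just inside it at 3 UMIs. Cd163 had a UMI in 2 of those 34 nuclei and in 1 of those 8.

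Microglia, the comparator, were the nuclei with at least 4 UMIs of Csf1r, Inpp5d, Siglech and P2ry12 together and at most 1 UMI of F13a1 and Mrc1. Taken alone these counts let in 5644 nuclei, of which 1898 held more than 1 neuronal UMI and had a median of 15579 UMIs. P2ry12, which lies inside Med12l on the opposite strand, also had UMIs in neurons. The limits of the border macrophages on myeloid, neuronal and Slc6a13 UMIs were therefore applied to microglia too, after these values were seen, which left 3492 nuclei with a median of 3283 UMIs. Border macrophages had fewer UMIs per nucleus than microglia in 6 of 6 replicates, with medians of 2675 ± 386 against 3379 ± 385 (SD, n = 6). An exact test by flipping the sign of the paired differences gave a two-sided p of 0.0312, the lowest value that 6 pairs permit. The summed counts of border macrophages ran from 45252 UMIs (pplCoA replicate 3, 18 nuclei) to 361790 UMIs (aplCoA replicate 1, 102 nuclei), so that values of the small pplCoA replicates carry the larger counting error. Any pair of the 7 libraries shared 5 to 36 barcodes, and no barcode of a border macrophage was that of a border macrophage in another library. The nuclei with the highest Scrublet scores in each library were marked as doublets, at a rate set beforehand to 1% per 1000 nuclei. These were 21 border macrophages (6.95%), beside 5.30% of microglia and 8.24% of all nuclei. In addition, 8 of 302 border macrophages and 96 of 3492 microglia held at least 3 UMIs of the genes that gate another class.

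The share of border macrophages was higher in aplCoA than in pplCoA. They made up 0.644%, 0.907% and 0.778% of nuclei in aplCoA replicates 1, 2 and 3, from 102 of 15847, 38 of 4191 and 79 of 10150 nuclei. In pplCoA they made up 0.402%, 0.457% and 0.325%, from 39 of 9696, 26 of 5689 and 18 of 5542 nuclei. All 3 aplCoA values lay above all 3 pplCoA values.

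The means were 0.776 ± 0.132% in aplCoA and 0.395 ± 0.0664% in pplCoA (SD, n = 3 each), a ratio of 1.97. limma on logit shares of the 12 gated classes, the nuclei in no class among them, gave an adjusted p of 0.0153, and on arcsine square root shares an adjusted p of 0.0776, which misses the threshold of 0.05. The exact permutation test gave p = 0.1, the smallest that 3 replicates against 3 allow. The adjusted p from limma rose to 0.0514 without aplCoA replicate 3 and to 0.0751 without pplCoA replicate 3. Within aplCoA replicate 1, library 1 held 73 border macrophages and library 2 held 29.

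The meningeal classes and microglia were set beside them. Vascular leptomeningeal cells (VLMCs), the fibroblast-like cells of the meninges, made up 7.33 ± 3.18% of nuclei in aplCoA and 3.89 ± 0.458% in pplCoA (SD, n = 3 each; limma, adjusted p = 0.101). Arachnoid barrier cells (ABCs), the epithelium-like outer layer, made up 2.41 ± 0.766% and 0.779 ± 0.143% (limma, adjusted p = 0.0123). Microglia ran the other way, with 5.68 ± 0.381% against 8.54 ± 0.316% (limma, adjusted p = 0.0153).

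Per 100 border macrophages and microglia, 12.0 ± 1.98 were border macrophages in aplCoA and 4.42 ± 0.728 in pplCoA (SD, n = 3 each; exact permutation test, p = 0.1, no overlap). Per 100 VLMCs, there were 16.3, 8.86 and 9.97 border macrophages in the aplCoA replicates and 11.7, 10.5 and 8.41 in the pplCoA replicates. These values overlapped, with means of 11.7 ± 4.04 and 10.2 ± 1.65 (SD, n = 3 each; exact permutation test, p = 0.8). Per 100 ABCs the means ran the other way, at 35.6 ± 17.6 in aplCoA and 52.5 ± 15.5 in pplCoA, and overlapped as well (SD, n = 3 each; exact permutation test, p = 0.2). Mean shares of VLMCs and ABCs were higher in aplCoA too, and their part in the difference was not tested.

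**Figure D1:**
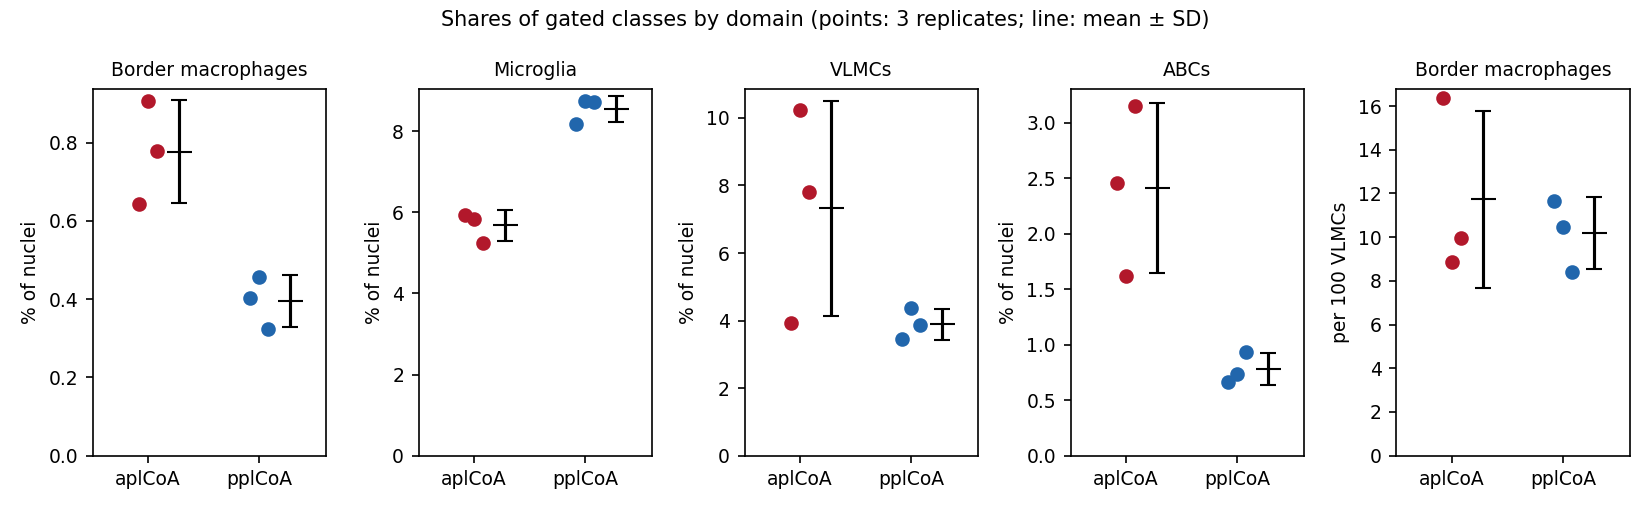
Percent of nuclei in each of 4 gated classes (4 left panels) and border macrophages per 100 VLMCs (right panel), in aplCoA (red) and pplCoA (blue); points are the 3 replicates of a domain and lines the mean ± SD. Border macrophages, at 0.325 to 0.907% of nuclei, and ABCs did not overlap between domains, whereas border macrophages per 100 VLMCs did.

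Border macrophages and microglia of the same replicates were then compared gene by gene with edgeR's quasi-likelihood test, with the replicate as a block and the 12 genes of the rule left out. A gene was called at a Benjamini-Hochberg adjusted p below 0.05 and a change of at least 2-fold. Of 8533 genes tested, 1252 (14.7%) were called, 550 (6.45%) higher and 702 (8.23%) lower in border macrophages. The classes were gated on the same libraries, so the test describes how the gated nuclei differed in genes the gates did not use. Genes near 0 in microglia passed the filter on low counts through border macrophages alone, so counts and medians over lists are descriptions, and the p-values of such genes come from genes that border macrophages brought into the test.

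All gene lists were chosen with earlier results of these data known, so counts over them describe the lists and are not support. The 20 genes listed as border macrophage genes included F13a1 and Mrc1, 14 genes that passed the filter and 4 that did not. All 14 tested genes were called higher, against 6.45% of all genes tested, and all 14 had 6 border macrophage values above the 6 microglia values, as 8.07% of all genes tested did (9.15% lay wholly below and 17.2% did not overlap in either direction). Their median log2 fold change was 7.43, beside -0.05 over all genes tested. The list included Cd74, which is taken up with MHC class II further on. The 4 genes below the filter were Folr2, Clec12a, Cd209f and Cd209g. Their means over the 6 replicates were 23.3 to 44.5 CPM in border macrophages and at most 1.03 CPM in microglia.

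Cd163, which clears haptoglobin-bound haemoglobin, stood at 464, 615 and 731 CPM in aplCoA and 572, 700 and 685 CPM in pplCoA border macrophages. In microglia it stood at 0.85 CPM in aplCoA replicate 1 and at 0 in the other 5 replicates. The pooled ratio, from 591 UMIs against 3, was 2661 (exact 95% counting interval 906 to 12939). Dab2, an endocytic adaptor protein, was at 3848 ± 752 against 28.7 ± 5.91 CPM (SD, n = 6; log2 fold change 6.97, SE 0.18, edgeR adjusted p = 2.19e-14). The hyaluronan receptor gene Lyve1 was at 293 ± 76.4 CPM in border macrophages, from 276 UMIs against 2 in all microglia (pooled ratio 1864, exact 95% counting interval 511 to 15467).

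Cd163, Lyve1 and Dab2 were also counted nucleus by nucleus. At 2000 UMIs per nucleus, which 235 border macrophages and 3027 microglia reached, 55.7% of border macrophages (Wilson 95% interval 49.4 to 62.0%) and 0.0330% of microglia held Cd163. Lyve1 was seen in 35.3% (29.5 to 41.6%) of border macrophages and 0.0661% of microglia, and Dab2 in 94.0% (90.2 to 96.4%) and 5.29%. Dab2 was also seen in 40.3% of VLMCs, against 0.165% for Cd163 and 0.110% for Lyve1. In oligodendrocytes, which should lack these genes, the shares at that depth were 0.0522%, 0.0522% and 0.366%. Before thinning, Cd163 was in 59.9% of border macrophages at a median of 2692 UMIs and in 0.1% of oligodendrocytes at a median of 3502 UMIs. Intervals cover counting error only.

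The 15 genes with the largest increases among those called, at 50 CPM or more and with no overlap, were Ms4a4a, Cd163, Ms4a7, Lyve1, Ifi202b, Rgs18, Clec4n, Gm30489, Aoah, Cd38, Gm49144, Cbr2, Clec10a, F630028O10Rik and Tlr8. Ms4a4a, of the tetraspan MS4A family, had 481 UMIs in border macrophages and 0 in microglia, and was at least 2165-fold higher when a floor of 3 counts over all microglia is taken. Against the same floor, the interferon-inducible gene Ifi202b was at least 347-fold higher, the fungal lectin receptor gene Clec4n at least 333-fold and the G protein regulator gene Rgs18 at least 279-fold. Aoah, whose enzyme inactivates bacterial lipopolysaccharide, was at 1032 ± 200 against 1.10 ± 1.34 CPM (SD, n = 6; log2 fold change 9.28, SE 0.31, edgeR adjusted p = 5.14e-13). Cd38, an NAD-consuming ectoenzyme, was at 226 to 309 CPM in the 6 border macrophage values and at most 1.38 CPM in microglia.

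The 10 genes with the largest decreases were Itgb3, Myo18b, Sall1, A830008E24Rik, Lag3, Gm3739, Upk1b, Ebf3, Col15a1 and 8030442B05Rik. Itgb3, an integrin beta chain, had 0 UMIs in border macrophages and 44.4 to 66.0 CPM in microglia, at least 17.0-fold lower against the floor of 3 counts over all border macrophages. Sall1, the transcription factor that maintains microglial identity, stood at 0, 6.69 and 0 CPM in aplCoA and at 16.3, 0 and 133 CPM in pplCoA border macrophages, against 362 to 510 CPM in microglia (log2 fold change -5.51, SE 0.45, edgeR adjusted p = 3.96e-08). The highest value came from pplCoA replicate 3, which had 18 border macrophages. Without that replicate the log2 fold change of Sall1 was -7.00.

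**Figure D2:**
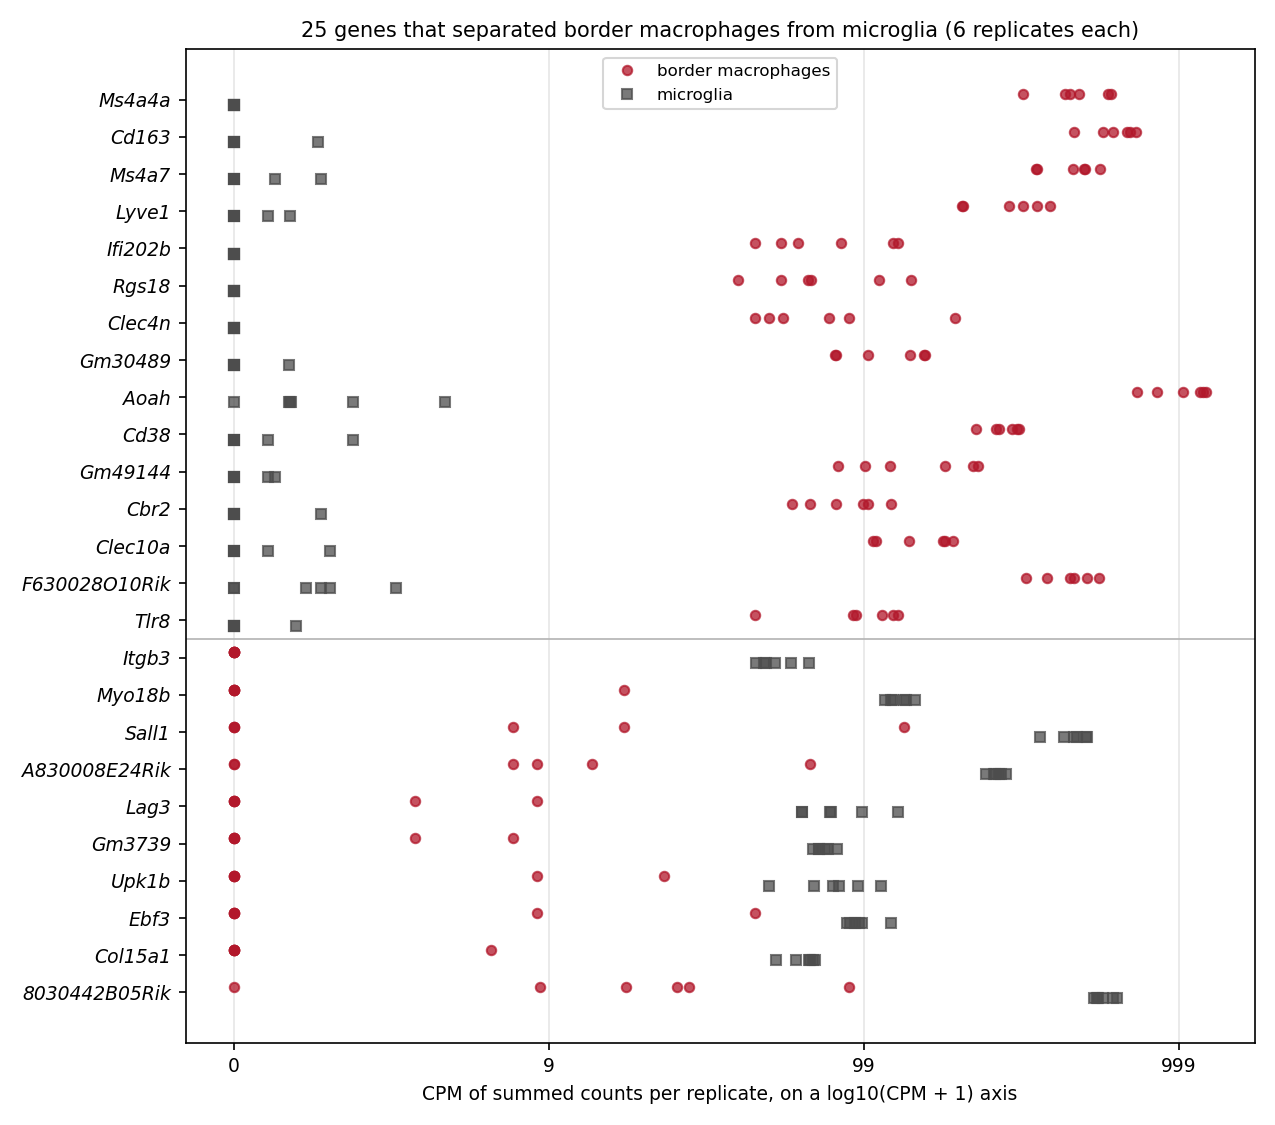
CPM of summed counts per replicate (log10 axis of CPM + 1) for the 15 genes with the largest increases (above the line) and the 10 with the largest decreases (below it), in border macrophages (red circles) and microglia (grey squares), 6 replicates each. No gene shown overlapped between the classes; the right-most red point of Sall1 is pplCoA replicate 3, at 133 CPM.

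All 16 tested genes of the microglia list were called lower, against 8.23% of all genes tested, with a median log2 fold change of -3.47. The list did not fall to one level. Fcrls (444 ± 57.5 against 994 ± 149.9 CPM, log2 fold change -1.19) and Bin1 (333 ± 57.3 against 1068 ± 54.8 CPM, -1.76) fell less than Tmem119 (28.9 ± 41.7 against 384 ± 77.4 CPM, -4.30) and the fructose transporter gene Slc2a5 (4.78 ± 5.75 against 149 ± 25.2 CPM, -4.38; SD, n = 6; edgeR adjusted p = 5.08e-07, 1.85e-09, 2.61e-08 and 9.66e-08). P2ry12, a gene of the microglia gate that was not tested, was at 694 ± 236 CPM in border macrophages and 1542 ± 137 CPM in microglia (SD, n = 6).

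Summed over the 16 genes, border macrophages held 1312 to 5414 CPM per replicate and microglia 14523 to 22070 CPM. The highest border macrophage sum and 25 of the 88 UMIs of Sall1, Sall3, Tmem119, Sparc, Olfml3 and Slc2a5 came from pplCoA replicate 3. In all, 9 of 302 border macrophages held 3 or more UMIs of these 6 genes, and up to 15 in 1 nucleus. Several of the 9, among them the nucleus with 15, met the rule with only 3 or 4 UMIs of F13a1 alone or Mrc1 alone. The part of these nuclei in the levels of microglia genes was not tested.

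Of 21 tested genes that both kinds of macrophage share, 1 was called higher and 10 lower (6.45% and 8.23% of all genes tested), with a median log2 fold change of -0.78 beside -0.05 over all genes tested. Adgre1, which encodes the macrophage marker F4/80, was at 767 ± 122 against 196 ± 21.8 CPM (log2 fold change 1.91), while Aif1, which encodes IBA1, was at 22.7 ± 24.3 against 110.0 ± 21.2 CPM (-2.70; SD, n = 6; edgeR adjusted p = 1.24e-09 and 1.48e-05). The lineage factor Spi1 (PU.1) was at 231 ± 59.6 against 293 ± 15.7 CPM and was not called (log2 fold change -0.45, SE 0.14, edgeR adjusted p = 0.0244, under 2-fold).

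Of 25 listed scavenger and endocytic receptor genes, 14 were tested, and several of these passed the filter through border macrophages alone. As a description of those 14, 11 were called higher and 2 lower (6.45% and 8.23% of all genes tested), with a median log2 fold change of 6.21. Besides Cd163 and Lyve1, Colec12, a scavenger receptor of the collectin family, was at 1171 to 1656 CPM in the 6 border macrophage values and at 1.56 to 8.58 CPM in microglia (log2 fold change 8.40, SE 0.23, edgeR adjusted p = 6.31e-14). Colec12 was not particular to border macrophages. At 2000 UMIs per nucleus it was seen in 66.4% of them, 64.3% of VLMCs and 0.661% of microglia. Timd4, a receptor for phosphatidylserine on dying cells, had 93 UMIs in border macrophages and 3 in microglia (pooled ratio 419, 139 to 2067). The efferocytosis receptor gene Mertk went the other way, at 1007 ± 208 against 2455 ± 164 CPM (log2 fold change -1.37), as did Lrp1 at 92.1 ± 21.4 against 311 ± 16.1 CPM (-1.78; SD, n = 6; edgeR adjusted p = 8.88e-09 and 1.3e-07).

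In iron and heme handling, 5 of 12 tested genes were called higher and 0 lower (6.45% and 8.23% of all genes tested), with a median log2 fold change of 0.55. They were Cd163, the ferroxidase gene Cp (ceruloplasmin; 423 ± 155 against 24.4 ± 8.5 CPM, log2 fold change 4.01), the biliverdin reductase genes Blvrb (174 ± 43.5 against 24.6 ± 3.60 CPM, 2.86) and Blvra (1.38), and the heme oxygenase gene Hmox1 (24.8 ± 5.61 against 4.55 ± 1.72 CPM, 2.55). The ferritin genes Fth1 and Ftl1 were not called, with log2 fold changes of -0.17 (SE 0.20) and 0.06 (SE 0.21).

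Complement genes split. The receptor gene Vsig4 had 57 UMIs in border macrophages and 1 in microglia (pooled ratio 770, 133 to 30933). C4b was at 44.2 ± 17.4 against 0.397 ± 0.590 CPM (log2 fold change 6.44) and C5ar1 at 114 ± 42.2 against 28.3 ± 7.04 CPM (1.89). C1qa was at 424 ± 181 against 1012 ± 183 CPM (-1.30), C1qb at 514 ± 223 against 1072 ± 215 CPM (-1.14) and the complement receptor chain Itgam was called lower with them (-1.87; SD, n = 6). Of 11 tested complement genes, 3 were called higher and 3 lower (6.45% and 8.23% of all genes tested), with a median log2 fold change of -0.15.

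Among 31 tested transcription factor genes, 4 were called higher and 9 lower (6.45% and 8.23% of all genes tested), with a median log2 fold change of -0.25. Rbpj, the DNA-binding partner of Notch, stood at 4641, 5001 and 4925 CPM in aplCoA and 4761, 6176 and 7292 CPM in pplCoA border macrophages, against 104 to 111 CPM in microglia. It had the smallest adjusted p of the list (log2 fold change 5.57, SE 0.12, edgeR adjusted p = 2.73e-15). Maf (1665 ± 337 against 759.9 ± 49.3 CPM, log2 fold change 1.05) rose, while Smad7 (-3.89), Smad3 (-1.12), Sall3 (-4.18) and Irf8 (-1.46) fell (SD, n = 6). Smad3 and Smad7 act in TGF-beta signalling, and so does the receptor gene Tgfbr1, at 166 to 707 CPM in border macrophages and 2861 to 3620 CPM in microglia (log2 fold change -3.15, SE 0.19, edgeR adjusted p = 5.86e-10). Tgfbr2 was at 646 ± 100.2 against 591 ± 29.8 CPM (log2 fold change 0.05, SE 0.11).

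Of 28 tested receptor genes for cytokines and growth factors, 5 were called higher and 5 lower (6.45% and 8.23% of all genes tested), with a median log2 fold change of -0.03. The chemokine receptor gene Ccr1 (89.2 ± 22.2 against 2.03 ± 0.898 CPM, log2 fold change 5.21) and the semaphorin and VEGF co-receptor gene Nrp1 (1436 ± 165 against 282 ± 28.2 CPM, 2.30) were higher, and the fractalkine receptor gene Cx3cr1 (358 ± 168 against 1822 ± 242 CPM, -2.48) and Csf3r (-2.00) lower (SD, n = 6). Among secreted factors, Igf1 was at 293, 394 and 301 CPM in aplCoA and 523, 395 and 199 CPM in pplCoA border macrophages, and at 0 to 2.42 CPM in microglia (log2 fold change 7.78, SE 0.29, edgeR adjusted p = 1.97e-12). The platelet chemokine gene Pf4 (106 ± 62.1 against 0.263 ± 0.431 CPM, 7.90), Tgfbi (3.22) and Il16 (3.17) were also higher, Pdgfb was lower (-2.17), and Il1a had 1 UMI against 641 (47.5-fold lower by the pooled counts, 8.49 to 1878). In all, 6 of 13 tested ligand genes were called higher and 3 lower (6.45% and 8.23% of all genes tested), with a median log2 fold change of 0.33.

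Of 22 tested lysosomal genes, 3 were called higher and 5 lower (6.45% and 8.23% of all genes tested), with a median log2 fold change of -0.07. The lysozyme gene Lyz2 (302 ± 146 against 12.1 ± 3.58 CPM, log2 fold change 4.55) and the cathepsin gene Ctsc (1048 ± 260.3 against 134 ± 7.88 CPM, 2.87) were higher, and Ctsd (-2.63) lower (SD, n = 6). In lipid handling, 4 of 16 were called higher and 5 lower (6.45% and 8.23% of all genes tested), with a median log2 fold change of -0.06. Apoe stood at 2148, 3176 and 4282 CPM in aplCoA and 1356, 1082 and 3027 CPM in pplCoA border macrophages, against 105 to 210 CPM in microglia (log2 fold change 3.79, SE 0.23, edgeR adjusted p = 7.03e-10). Within aplCoA replicate 1, most border macrophages of library 2 held more Apoe UMIs than most of library 1. The value of that replicate therefore joins 2 unlike libraries. The tetraspanin gene Cd9 (-3.71) and the lyso-lipid acyltransferase gene Lpcat2 (-2.61) were lower.

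The ATP-gated channel gene P2rx7 was at 1061 to 1591 CPM in border macrophages and 215 to 273 CPM in microglia (log2 fold change 2.47, SE 0.12, edgeR adjusted p = 5.28e-11), and P2rx4 rose with it (1.32). The nucleotide and lysophospholipid receptor genes P2ry13 (-2.32) and Gpr34 (-2.54) fell, and Adora3 had 2 UMIs against 443 (16.4-fold lower by the pooled counts, 4.51 to 136). These made 2 called higher and 3 lower of 8 tested purinergic genes (6.45% and 8.23% of all genes tested), with a median log2 fold change of -0.53. Of 19 tested Fc and inhibitory receptor genes, 6 were called higher, led by the sialoadhesin gene Siglec1 (130.0 ± 33.2 against 1.15 ± 1.11 CPM, log2 fold change 6.64) and Lilrb4a (162 ± 27.4 against 2.54 ± 1.28 CPM, 5.92), and 6 lower, led by the TIM-3 gene Havcr2 (8.98 ± 13 against 229 ± 24.3 CPM, -3.95; SD, n = 6). Over all genes tested these shares were 6.45% and 8.23%, and the median log2 fold change of the list was -0.28. Of 17 adhesion and matrix genes, 2 were called higher and 11 lower (6.45% and 8.23% of all genes tested), with a median log2 fold change of -1.27. The integrin chain Itga4 rose (326 ± 80.8 against 7.31 ± 3.71 CPM, 5.34), whereas Itga6 (-2.30), Itgb5 (-2.29), Sparc (-4.07) and the P-selectin ligand gene Selplg (-3.72) fell.

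**Figure D3:**
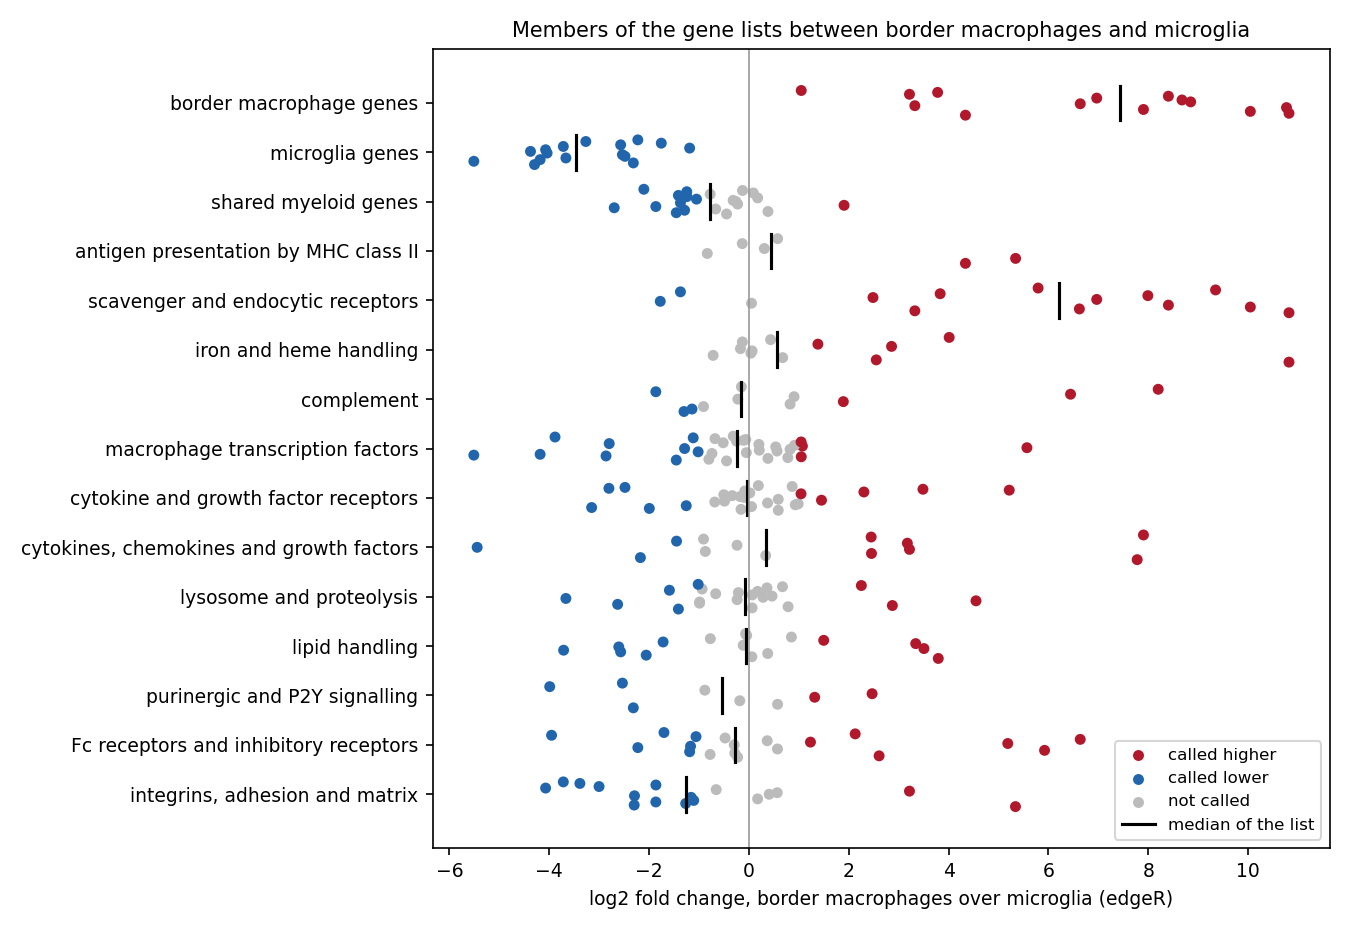
Log2 fold change between border macrophages and microglia (edgeR) for each tested member of 15 gene lists; red points were called higher, blue points lower and grey points not called, and black lines mark the median of a list. Border macrophage genes and scavenger receptors lay to the right, with medians of 7.43 and 6.21, and microglia genes to the left, at -3.47.

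The summed markers of other cell types were set beside these values. The 13 monocyte markers summed to 329 to 548 CPM in border macrophages and 27.3 to 41.9 CPM in microglia, but 6 of them were at 0 in border macrophages, among them Ly6c2, S100a8 and S100a9, and Itga4 and Ccr2 carried most of the sum. Of 11 dendritic cell markers outside the rule, Xcr1, Clec9a and Ccr7 were at 0, and Sirpa, which microglia also express, held 437 of a mean of 573 CPM. Lymphocyte and mast cell markers summed to at most 16.7 CPM, with 11 of 16 at 0. VLMC markers summed to 32.7 to 135 CPM, ABC markers to 0 to 85.7 CPM, endothelial markers to 0 to 41.8 CPM and mural markers to 0 to 22.1 CPM. Astrocyte markers summed to 201 to 535 CPM against 516 to 791 CPM in microglia, oligodendrocyte markers to 46.8 to 434 CPM against 88.9 to 228 CPM and OPC markers to 53.5 to 851 CPM against 147 to 487 CPM. Their part in the differences was not tested. The 5 neuronal markers outside the rule summed to 306 to 2828 CPM in border macrophages and 745 to 1970 CPM in microglia. Mitochondrially encoded genes summed to 177 to 641 CPM against 312 to 689 CPM, and stress genes to 33.4 to 155 CPM against 94.1 to 151 CPM.

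MHC class II genes, which present peptides to helper T cells, were held by a small set of border macrophages. Over Cd74, H2-Aa, H2-Ab1 and H2-Eb1, 462 of 468 UMIs (98.7%) lay in 31 nuclei with 2 or more such UMIs, of which 14 had 10 or more and the highest had 87. A further 6 nuclei held 1 UMI and 265 held 0. Cd74, the invariant chain, stood at 60.8, 281 and 384 CPM in aplCoA and 155, 63.7 and 22.1 CPM in pplCoA border macrophages, a spread far wider than that of Cd163. Cd74 (log2 fold change 4.34, SE 0.44, edgeR adjusted p = 5.8e-07) and H2-Eb1 (5.34, SE 0.56, edgeR adjusted p = 8.85e-07) were the 2 genes called higher, with 0 called lower, of 6 tested in the MHC class II list (6.45% and 8.23% of all genes tested), whose median log2 fold change was 0.44. Without the 31 nuclei, both fell below the filter on low counts.

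The 31 nuclei rich in MHC class II were 6.86%, 10.5% and 12.7% of border macrophages in aplCoA and 15.4%, 11.5% and 5.56% in pplCoA (means 10.0 ± 2.93% and 10.8 ± 4.95%, SD, n = 3 each; exact permutation test, p = 0.9). They came from all 6 replicates, with 7, 4 and 10 nuclei in aplCoA and 6, 3 and 1 in pplCoA. Such numbers were too few for a test across replicates, so the levels are pooled values with exact Poisson 95% intervals that cover counting error only.

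The MHC class II rich nuclei sat low in the range that defined the border macrophages. They had a median of 8 UMIs of F13a1 and Mrc1, against 33 in the nuclei without MHC class II UMIs, at median depths of 2270 and 2717 UMIs. Of the 31 nuclei with 3 to 9 UMIs of F13a1 and Mrc1, 58.1% were MHC class II rich, followed by 19.6% of 46 nuclei with 10 to 19, 1.79% of 112 with 20 to 39, 2.33% of 86 with 40 to 79 and 0% of 27 with 80 or more. The share with a Cd163 UMI ran the other way, at 9.68%, 52.2%, 67.0%, 66.3% and 81.5% over the same steps, and so did that of Lyve1, at 3.23%, 26.1%, 40.2%, 57.0% and 92.6%. Median depth rose over these steps from 2184 to 5265 UMIs, and its part in the shares was not tested. Of the 14 nuclei with Mrc1 and no F13a1, 10 were MHC class II rich.

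**Figure D4:**
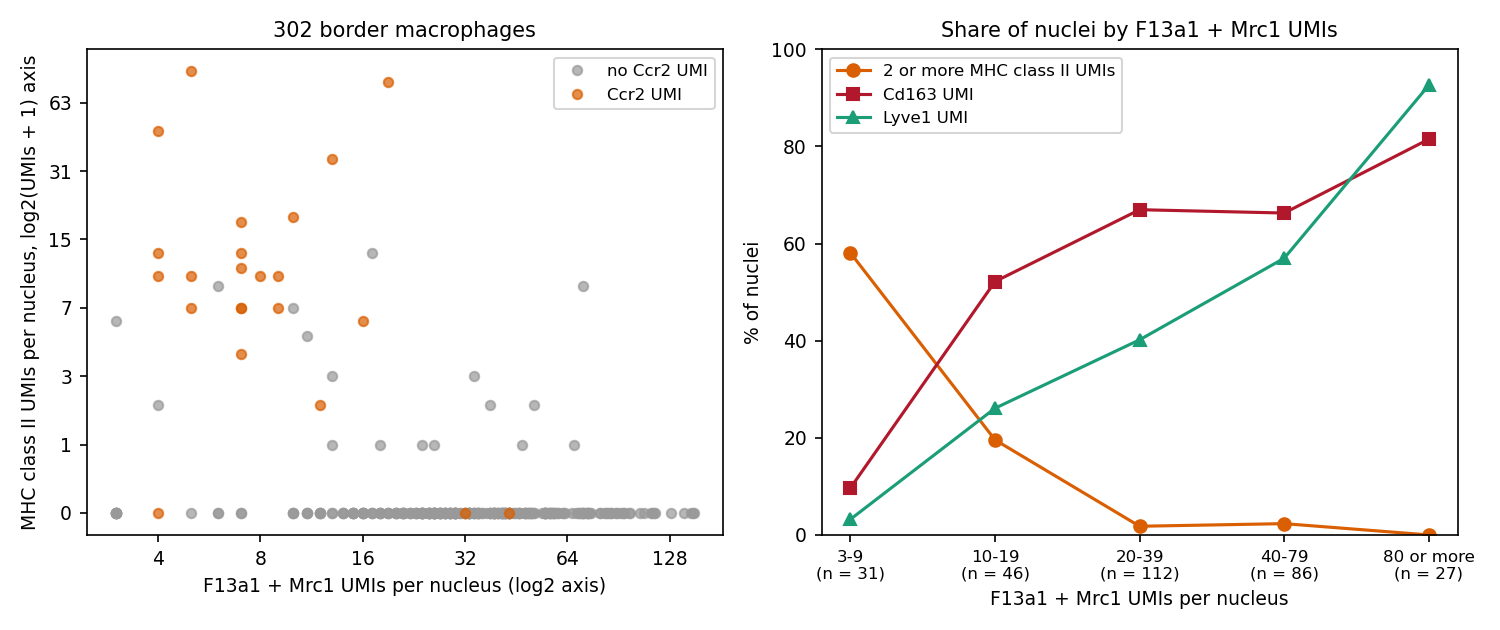
Left, UMIs of 4 MHC class II genes (log2 axis of UMIs + 1) against UMIs of F13a1 and Mrc1 (log2 axis) in each of 302 border macrophages, with orange for nuclei with a Ccr2 UMI; right, percent of nuclei that were MHC class II rich (orange) or held a UMI of Cd163 (red) or Lyve1 (green), by F13a1 and Mrc1 UMIs. Nuclei rich in MHC class II lie to the left and most are orange (20 of 31), and their share fell from 58.1% to 0% while that of Lyve1 rose from 3.23% to 92.6%.

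Ccr2, the receptor that brings monocytes into tissue, was found almost wholly in these nuclei. They held 89 of the 93 Ccr2 UMIs of border macrophages and 20 of the 23 nuclei with a Ccr2 UMI. The pooled level was 952 CPM (764 to 1171) in MHC class II rich nuclei and 4.54 CPM (1.24 to 11.6) in nuclei without MHC class II UMIs, and it was higher in the rich nuclei in 6 of 6 replicates. Ccr2 had a log2 fold change of 3.49 against microglia (SE 0.33, edgeR adjusted p = 2.81e-07), and it fell below the filter without the 31 nuclei. Ciita, the master regulator of MHC class II genes, was at 289 CPM (190 to 420) against 2.27 CPM (0.275 to 8.21), and higher in 5 of 6 replicates. Clec12a, a lectin receptor of myeloid cells, was at 128 CPM (66.3 to 224) against 7.95 CPM (3.2 to 16.4), and higher in 4 of 6 replicates.

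Several genes of the border macrophage list were lower in the rich nuclei, whereas Clec12a, also on that list, was higher in 4 of 6 replicates. Lyve1 was at 42.8 CPM (11.7 to 110) against 303 CPM (268 to 342), Colec12 at 321 CPM (216 to 458) against 1548 CPM (1467 to 1633), Stab1 at 706 CPM (546 to 898) against 2014 CPM (1922 to 2110) and Ms4a7 at 107 CPM (51.3 to 197) against 508 CPM (462 to 557). Each of these 4 was lower in the rich nuclei in 6 of 6 replicates, although pplCoA replicate 3 had 1 rich nucleus. Stab1 was at 2541 against 2749 CPM in that replicate. Dab2 was lower as well, at 1273 CPM (1054 to 1523) against 3939 CPM (3809 to 4072) and in 6 of 6 replicates, though 28 of 31 rich nuclei held a UMI of it. Cd163 was higher in the rich nuclei in 0 of 6 replicates. In aplCoA replicate 3, whose rich nuclei held 24 Cd163 UMIs, it was at 559 against 769 CPM. Maf, also on the list, was higher in the rich nuclei in 1 of 6 replicates. Tmem119 and Sall1 had 0 UMIs in them, which allows up to 32.1 CPM at 3 counts. The rich nuclei held 4 of the 5 UMIs of the dendritic cell receptor gene Flt3 in all border macrophages, which lay in 3 nuclei. At 2000 UMIs per nucleus Flt3 was seen in 0.851% of border macrophages, 0.760% of microglia, 0.679% of oligodendrocytes and 4.05% of glutamatergic nuclei. Other genes of the dendritic cell list differed. Xcr1, Clec9a and Ccr7 had no UMI in border macrophages, and most Zbtb46 UMIs lay in nuclei without MHC class II UMIs.

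Nuclei rich in MHC class II also stood outside the rule. Among nuclei that met its other limits and held fewer than 3 UMIs of F13a1 and Mrc1, 31 had 2 or more MHC class II UMIs. Ccr2 was at 994 CPM (804 to 1215) there, beside 952 CPM in the rich border macrophages, but Lyve1 and Colec12 had 0 UMIs, Tmem119 was at 282 CPM (186 to 411) and Sall1 at 115 CPM (57.4 to 206). Of the 34 nuclei with 2 UMIs of F13a1 and Mrc1, 10 were MHC class II rich. A floor of 2 UMIs would have added these 10 nuclei.

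Between aplCoA and pplCoA, the main test and DESeq2 called no gene in border macrophages with all replicates, though other tests given below did. edgeR's quasi-likelihood test on the 3 sums of each domain, over genes seen in at least 10% of border macrophages of a domain, called 0 of 5321 genes (0%), with 249 genes at an unadjusted p under 0.05, and DESeq2 called 0, with 76. In data simulated from the levels of these sums, with the same spread between replicates set for every gene, 74.5% of 200 genes changed 4-fold were called. There were 5 false calls. The spread of the measured genes was not simulated, so this share does not give the power of the test here. The values of 648 genes (12.2%) did not overlap between the domains, whereas with 3 values against 3 a share of 0.1 would not overlap by chance alone.

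The 5321 genes include 8 genes of the rule, whose levels are given as a description. F13a1 was at 7508 ± 1657 CPM in aplCoA and 6808 ± 1119 CPM in pplCoA, and Mrc1 at 4513 ± 945 and 5066 ± 1046 CPM (SD, n = 3 each). Cd163, which the rule did not use, was at 603 ± 134 and 652 ± 70.3 CPM (SD, n = 3 each; log2 fold change -0.07, SE 0.23). The lowest unadjusted p among genes lower in aplCoA belonged to Rnf19a, a ubiquitin ligase gene, at 77.8 ± 9.46 against 229 ± 59.7 CPM (log2 fold change -1.45, SE 0.32), then Slc40a1, which encodes the iron exporter ferroportin, at 163, 201 and 213 CPM in aplCoA and 269, 484 and 508 CPM in pplCoA (-1.05, SE 0.27), Gm11084, Gm2245 and Atg16l2. None of these genes overlapped between the domains, and none passed (edgeR adjusted p = 0.924). Among genes higher in aplCoA the lowest were Sgcz (289 ± 253 against 27.9 ± 18.8 CPM), Tafa2, Eef1a1, Unc5c and Sh3bgrl3 (edgeR adjusted p = 0.924 each). Sgcz was the 1 gene called by the likelihood ratio test, and with the replicate number as a block Sgcz and Opcml were called. Without pplCoA replicate 1, Ptprd, Meg3 and Nrg3 were called (edgeR adjusted p = 0.0496 each). Neuronal markers in the sums ran from 1150 to 2828 CPM in aplCoA and from 306 to 2131 CPM in pplCoA. These ranges overlapped, but both ends were higher in aplCoA, and the part of neuronal RNA in the calls was not tested. ABC markers, at 25.1 to 85.7 CPM in aplCoA and 0 to 12.7 CPM in pplCoA, did not overlap, and their part was not tested.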

How the data were processed

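Single-nucleus RNA-seq libraries were made from sorted nuclei of pooled, dissected tissue. The authors aligned reads with Cell Ranger 5.0.0 to mm10, introns included, and deposited unfiltered UMI count matrices, 1 per library, with a total of 50812605 to 129624583 UMIs. Their own nucleus filters and cell types were not used here, and the members, gene lists and tests were chosen with earlier results of these data known. The deposited counts were filtered as in the text and summed per replicate and class. Sums were tested with edgeR 4.0.16 (TMM, quasi-likelihood), between the classes with filterByExpr and the replicate as a block and between the domains over genes seen in at least 10% of border macrophages of a domain, and shares with limma 3.58.1 on log2 logits after adding 0.5 to each count. DESeq2 1.42.0 and R 4.3.3 served for alternatives, Scrublet (scanpy 1.11.5) for doublets, and Python 3.11.15 for the rest. p-values were adjusted by Benjamini-Hochberg over all genes tested, or over the gated classes for shares. The SE of a log2 fold change was its absolute value divided by the square root of the quasi-likelihood F statistic. It can be too small for genes near 0 in 1 class. Counts were simulated with 200 genes changed 4-fold and the same spread between replicates set for every gene. Of the changed genes that were tested, 93.4% were called between the classes, with 2 false calls among 8581 genes. Doublets were kept. Astrocyte and OPC gates (at least 3 UMIs of Gja1 and Aqp4, or of Pdgfra and Cspg4) were revised after class sizes were seen.

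Genes named were those of the rule, the 15 largest increases and 10 largest decreases among called genes at 50 CPM or more with no overlap between the classes, the called members of largest change in each list, and the 5 lowest p-values in each direction between domains. Further list members with values in the text, the genes given for MHC class II rich nuclei, and Zbtb46 and Ccl12 in the closing section were chosen after their values were seen. The planned test of MHC class II rich nuclei was not run, because fewer than 4 replicates had 5 such nuclei. Alternatives were other gates, scalings, tests and filters, thinning to 2000 UMIs and each replicate left out. Some listed genes are counted in their lists and not reported here by name.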

Additional observations from a re-analysis of the deposited data

Results flagged for a closer look

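Dixon's test was applied to 66 groups of 6 replicate values and marked 18. Several of the marked groups had UMIs in only 1 replicate, and such a group is always marked. The chance rate of about 1 in 20, which assumes normally distributed values, therefore does not apply here. The count of 18 is a description and was not tested for excess. In border macrophages, pplCoA replicate 3, the smallest sum, stood high for genes of microglia: Sall1 was at 133 CPM there against at most 16.3 CPM in the others, A830008E24Rik at 66.3 CPM against at most 12.7 CPM, Ebf3 at 44.2 CPM against at most 8.17 CPM and 8030442B05Rik at 88.4 CPM against at most 26.7 CPM. All border macrophages together held 9, 6, 3 and 19 UMIs of these 4 genes. In that replicate 2 of 18 border macrophages held 3 or more UMIs of the 6 microglia genes counted in the report. These 2 nuclei met the rule with 3 and 4 UMIs of Mrc1 and without F13a1, beside 15 and 9 UMIs of the microglia genes. Neither held a UMI of Cd163, Lyve1, Ms4a7 or Stab1, so apart from the rule their markers were those of microglia. Clec4n stood at 194 CPM in aplCoA replicate 2, against at most 88.4 CPM in the others.

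Most of the other marked values rest on few UMIs. In border macrophages, Upk1b was at 22.1 CPM in pplCoA replicate 3 and 8.17 CPM in pplCoA replicate 1, from 2 UMIs in all. Myo18b was at 16.3 CPM and Lag3 at 8.17 CPM in pplCoA replicate 1, and Col15a1 at 5.53 CPM in aplCoA replicate 1. In microglia, Cd163 was at 0.85 CPM, Aoah at 3.68 CPM and Tlr8 at 0.567 CPM in aplCoA replicate 1, Cbr2 at 0.888 CPM in aplCoA replicate 2, Clec10a at 1.01 CPM in aplCoA replicate 3, Cd38 at 1.38 CPM in pplCoA replicate 1 and Gm30489 at 0.498 CPM in pplCoA replicate 2. Microglia of aplCoA replicate 2, whose values do not rest on few UMIs, stood apart in the level of Ebf3, at 121 CPM, and in depth, with a median of 4120 UMIs against at most 3386 UMIs in the others.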

How the results depend on the processing

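Of 77 repeats of the main comparisons under other settings, 68 kept their side of the threshold, their count within 1.5 times or, for ratios with no call, their value within 1 SD of the replicates. The difference in the share of border macrophages (0.382 percentage points, aplCoA above pplCoA) was no longer past 0.05 with arcsine square root shares (0.382, limma adjusted p = 0.0776), and ranged from 0.316 to 0.448 when 1 replicate was left out, with the call lost without aplCoA replicate 3 or pplCoA replicate 3. With the replicate number as a block the adjusted p of the share was 0.0274. Border macrophages per 100 border macrophages and microglia differed by 7.63 between domains, by 6.93 to 8.76 without 1 replicate and by 5.07 with microglia taken by the stated counts alone. Per 100 VLMCs the difference of 1.54, which had no call and is among those 68, changed sign without aplCoA replicate 1 (-0.774) and rose to 2.97 without aplCoA replicate 2. Between border macrophages and microglia, the count of called genes was 1924 with no filter on low counts, 3989 with microglia by the stated counts alone (775 of the 1252 calls kept), and 1155 to 1257 without 1 replicate. Sirpa reversed with microglia by the stated counts alone (log2 fold change 0.0273). For 76 named or listed genes, 1265 of 1276 values kept their call, and 10 lost it, for Itgae, Batf3, Itgam, P2ry13 and Apbb1ip. Microglia by the stated counts alone, and border macrophages without MHC class II rich nuclei, were chosen after seeing the data. Between the domains, 1 gene was called by the likelihood ratio test, 2 with the replicate number as a block and 0 to 3 without 1 replicate (Ptprd, Meg3 and Nrg3 without pplCoA replicate 1, against 0 of 5321 with all); the cause was not tested. Same-numbered replicates correlated by 0.295, 0.0635 and 0.0348 in their deviations, so the numbers were not taken to pair the pools. Depth limits the pplCoA sums most, at 45252 UMIs in replicate 3. Alternatives for the test of MHC class II rich nuclei were not run.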

Other observations

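The genes given here were chosen after their values were seen. Zbtb46, a transcription factor gene of conventional dendritic cells, was at 77.8 ± 35.2 CPM in border macrophages and 13.7 ± 3.24 CPM in microglia (SD, n = 6; log2 fold change 2.51, SE 0.34, edgeR adjusted p = 1.71e-05), higher in 5 of 6 replicates. It was the 1 gene called higher of the 4 tested in the dendritic cell list, against 6.45% of all genes tested. Batf3 (-2.11), Itgae (-1.90) and Sirpa (-1.17) were called lower, against 8.23% of all genes tested, and the median log2 fold change of the list was -1.54. The call of Batf3 was lost without aplCoA replicate 1 (edgeR adjusted p = 0.0940) and that of Itgae without any 1 of 4 replicates (edgeR adjusted p = 0.0566 to 0.152). With microglia by the stated counts alone both calls were lost and Sirpa changed sign (0.0273). Of the 85 UMIs of Zbtb46, 76 lay in the nuclei without MHC class II UMIs and 7 in the MHC class II rich nuclei. These came to 86.3 CPM (68.0 to 108) and 74.9 CPM (30.1 to 154) with exact Poisson 95% intervals. Ccl12, a monocyte-attracting chemokine gene, was at 68.0 ± 49.7 against 11.2 ± 4.79 CPM (SD, n = 6; log2 fold change 2.45, SE 0.39, edgeR adjusted p = 0.000114), higher in 6 of 6 replicates.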
